A study of Homo sapiens with 4 samples.

Results

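Ribosome biogenesis factors, the proteins that transcribe ribosomal DNA in the nucleolus, process ribosomal RNA (rRNA) and assemble the 40S and 60S subunits, were followed through 50 listed genes in OPM2 cells, an established human multiple myeloma line, given an inhibitor of PI3 kinase and mTOR. The genes were listed by name for their known roles, with earlier results of these data known. A probe set that the array's annotation maps to exactly 1 gene was found for 46 of the 50, out of 18377 such genes in all, and 45 of the 46 were bright enough to be tested among 11026 genes. The study held 4 arrays of 1 colour. They came from 2 samples treated with VS-5584, also called SB2343, at a labelled 123 nM for 24 h, and 2 control samples given its solvent, DMSO, for the same 24 h. The design text gives the dose as 125 nM, chosen below the 48 h IC50 of the line. Both groups were grown in serum-containing medium. The titles name biological replicates but no separate cultures, so p-values measure only the spread between these samples, which may be technical.

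Ribosome production starts when RNA polymerase I copies ribosomal DNA into a long precursor RNA. Small nucleolar RNA-protein particles modify that precursor, the small subunit processome folds and cuts its 18S part, and a separate set of factors builds the 60S subunit around the 28S and 5.8S parts. The pathway is among the most costly of a growing cell. It is controlled by mTOR, which acts on polymerase I through the initiation factor encoded by RRN3, and by MYC, a transcription factor that binds E-boxes near the starts of many ribosome biogenesis genes. The data hold mRNA levels of the protein factors. They hold no measure of rRNA, of nucleoli or of translation, and in bulk RNA fewer cells of a type and less RNA per cell cannot be told apart.

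Ribosome biogenesis mRNAs were a little lower after VS-5584, almost without exception and by amounts that did not pass the test gene by gene. All 45 tested genes had a lower average in VS-5584 cells than in controls, where 62.7% of all genes tested did. The median log2 difference was -0.31, or 1.24-fold lower, against -0.06 for all genes tested, and the middle 50% of the 45 genes lay between -0.37 and -0.19. The extremes were LYAR at -0.80 and BOP1 at -0.0073. With limma and Benjamini-Hochberg adjustment over all 11026 genes, 0 of the 45 passed an adjusted p of 0.05, and 0% of all genes did. The smallest adjusted p among the 45 was 0.285 for LYAR, against 0.0640 over all genes. At an unadjusted p under 0.05, 15 of the 45 were lower and 0 were higher, against 8.93% lower and 1.49% higher among all genes tested. The groups did not overlap, with both VS-5584 arrays below both controls, for 35 of the 45, against 29.2% of all genes tested. No member lay above both controls on both VS-5584 arrays, where 14.7% of all genes did.

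**Figure D1:**
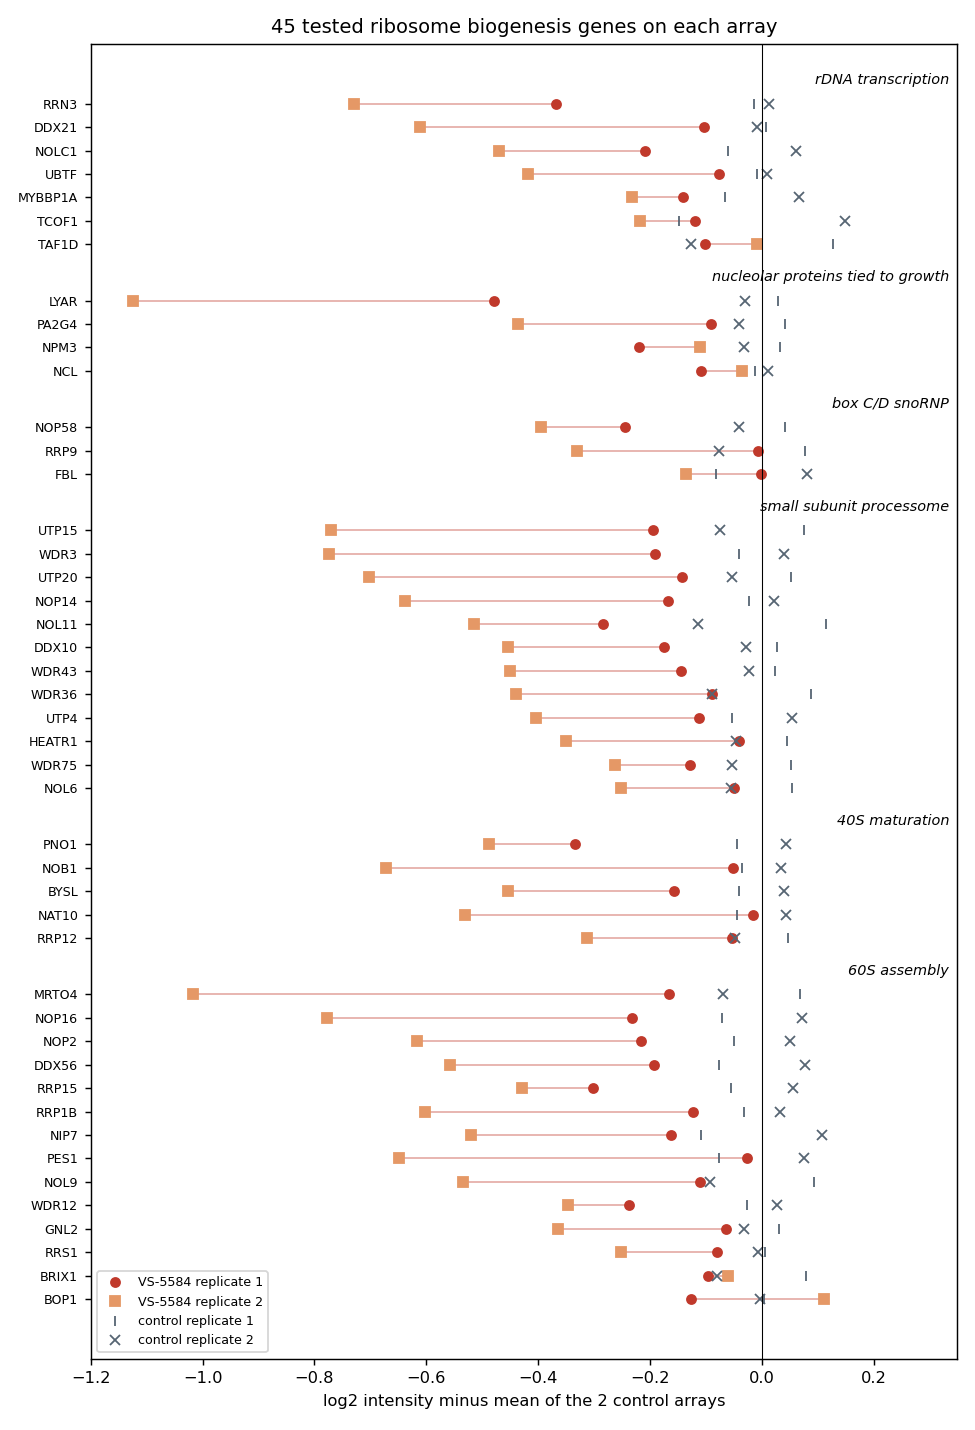
Each row is a tested ribosome biogenesis gene, sorted by difference within its role group, and the x axis is the log2 intensity minus the mean of the 2 control arrays. Circles and squares are VS-5584 replicates 1 and 2, and ticks and crosses are control replicates 1 and 2. VS-5584 replicate 2 lies to the left of replicate 1 for 40 of the 45 genes, and LYAR and MRTO4 reach furthest left.

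The VS-5584 arrays differed in how far they moved. Of the 4 arrays, VS-5584 replicate 2 stood apart over all 28869 probe sets. Its log2 interquartile range was 1.74, against 1.94 on VS-5584 replicate 1 and 1.93 and 1.95 on the controls, and it correlated with the other arrays at 0.980 to 0.985, against 0.993 to 0.996 among those. The median of the 45 genes was -0.13 on replicate 1 and -0.45 on replicate 2, each taken from the control mean. For all genes tested the same medians were -0.0022 and -0.14. VS-5584 replicate 1 was below both controls for 37 of the 45 genes, against 34.6% of all genes tested, and replicate 2 was for 42 of the 45, against 60.1%. Without replicate 2, all 45 averages stayed below 0, against 50.6% of all genes, but 32 of the 45 differences were over 1.5 times smaller and 3 over 1.5 times larger. At an unadjusted p under 0.05, 4 of the 45 were then lower, against 4.41% of all genes. Without replicate 1, 29 of the 45 passed the adjusted threshold as lower, and so did 21.6% of all genes tested. At an unadjusted p under 0.05 it was then 34 of the 45, against 32.7% of all genes, and 44 averages were below 0, against 67.4%. The median standard deviation of a member was 0.22 between VS-5584 replicates and 0.068 between controls, against 0.14 and 0.073 over all genes tested. The median difference of control replicate 2 from control replicate 1 was -0.0076 for the 45 genes, and control 2 was above control 1 for 22 of them. Plasma cell markers fitted the label of the line. All 6 (SDC1, CD38, TNFRSF17, IRF4, PRDM1 and XBP1) were above the filter on dim genes, with summed intensities of 7372 to 8359 in VS-5584 cells and 7127 to 7439 in controls. CD38, at 92.1 to 122, and SDC1, at 139 to 168, added little to these sums, and the others were at 1233 to 2481. T cell, myeloid and epithelial markers were below the filter for 9 of 9 genes. Of the 2 B cell markers measured PAX5 was just above it at intensities of 46.2 to 53.3, and of 3 fibroblast markers COL1A1 was, at 77.9 to 84.8.

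Among genes for rDNA transcription, RRN3 differed most. It encodes TIF-IA, the factor that lets RNA polymerase I start at the rDNA promoter. Its log2 intensity was 7.85 and 7.49 in VS-5584 cells and 8.20 and 8.23 in controls. Both treated arrays lay well below both controls, and the controls were within 0.027 of each other. The log2 difference was -0.55 ± 0.15 (SE), or 1.46-fold lower (limma adjusted p = 0.319). RRN3 has near-identical pseudogene copies, so its signal is uncertain. NOLC1, the nucleolar chaperone Nopp140, stood at 10.02 and 9.76 in VS-5584 cells and at 10.17 and 10.29 in controls. The groups did not overlap, with a difference of -0.34 ± 0.14 (SE, adjusted p = 0.469). TAF1D, a subunit of the promoter selectivity factor SL1, was at 9.31 and 9.41 in VS-5584 cells, within its control values of 9.54 and 9.29. Its difference was -0.055 ± 0.14 (SE). The other 4 genes of this group were lower by 0.17 to 0.36 on average. They were DDX21, a helicase of rRNA transcription and processing, at -0.36, UBTF, the factor that holds rDNA in its active state, at -0.25, MYBBP1A at -0.19 and TCOF1, whose loss in humans causes Treacher Collins syndrome, at -0.17. In this group 5 of 7 genes had no overlap between VS-5584 and control arrays, against 29.2% of all genes tested, and 2 had an unadjusted p under 0.05, against 8.93%.

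LYAR had the largest difference of all 45. It encodes a nucleolar zinc finger protein tied to cell growth and rRNA processing. Its log2 intensity was 7.69 and 7.05 in VS-5584 cells and 8.20 and 8.14 in controls. The 2 controls were close together and the 2 treated samples were far apart, both below. The difference was -0.80 ± 0.20 (SE), 1.74-fold lower (adjusted p = 0.285). PA2G4, the growth-regulated protein EBP1, was at 11.35 and 11.01 in VS-5584 cells and 11.48 and 11.40 in controls, and differed by -0.26 ± 0.15 (SE). NCL, nucleolin, an abundant RNA-binding protein of the nucleolus, was at 11.94 and 12.01 in VS-5584 cells and 12.03 and 12.06 in controls. The NCL groups did not overlap, yet the difference was only -0.072 ± 0.13 (SE, adjusted p = 0.857). NPM3, a nucleoplasmin family chaperone, differed by -0.17.

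NPM1, nucleophosmin, could not be judged. Its only probe set with 1 gene had log2 intensities of 5.00 and 4.91 in VS-5584 cells and 4.88 and 5.02 in controls, below the filter on dim genes. NPM1 and PA2G4 also have processed pseudogenes, so their signals are uncertain.

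The box C/D small nucleolar ribonucleoprotein (snoRNP), which places methyl groups on rRNA, had 3 genes tested. Their median was -0.17, with -0.0064 on VS-5584 replicate 1 and -0.33 on replicate 2. Only 1 of the 3 had no overlap, a share near the 29.2% of all genes tested. NOP58, a core protein, was at 10.34 and 10.19 in VS-5584 cells and 10.63 and 10.54 in controls, a difference of -0.32 ± 0.13 (SE, adjusted p = 0.463) with no overlap. FBL, the methyltransferase fibrillarin, was at 11.27 and 11.14 in VS-5584 cells and 11.19 and 11.35 in controls, so that the groups overlapped (-0.068 ± 0.14, SE). RRP9, a U3-specific protein, was at 6.96 and 6.64 in VS-5584 cells and 7.05 and 6.89 in controls, which also overlapped (-0.17 ± 0.15, SE). NOP56, the partner of NOP58, was not measured by itself, since its probe set is also assigned to the small nucleolar RNA inside it.

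All 12 genes of the small subunit processome, the large particle that assembles on the 5' end of the precursor rRNA, were lower on average, 10 of them with no overlap, against 29.2% of all genes tested. Their median was -0.31, and 5 had an unadjusted p under 0.05, against 8.93% of all genes. NOL11 encodes a protein of the subcomplex that links rDNA transcription to early processing. Its level was 8.13 and 7.90 in VS-5584 cells and 8.52 and 8.30 in controls, a difference of -0.40 ± 0.15 (SE, adjusted p = 0.426). WDR3, a WD-repeat protein of the processome, was at 7.08 and 6.49 in VS-5584 cells and 7.23 and 7.31 in controls (-0.48 ± 0.19, SE). UTP15, of the same subcomplex as NOL11, was at 8.51 and 7.93 in VS-5584 cells and 8.78 and 8.63 in controls (-0.48 ± 0.19, SE). WDR3 and UTP15 shared a pattern in which replicate 2 was lower by far more than replicate 1. NOL6 had the difference nearest 0, with 6.23 and 6.03 in VS-5584 cells and 6.34 and 6.23 in controls (-0.15 ± 0.14, SE). The other 8 lay between -0.42 for UTP20 and -0.19 for WDR75, with HEATR1, a large scaffold protein, at -0.20 and overlapping groups.

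In late 40S maturation, PNO1 was among the steadiest of the lower genes. It encodes the partner of the NOB1 nuclease that makes the last cut of 18S rRNA. PNO1 was at 7.51 and 7.36 in VS-5584 cells and 7.80 and 7.89 in controls. Both treated samples were lower by a like amount, -0.33 and -0.49 from the control mean, and the difference was -0.41 ± 0.13 (SE, adjusted p = 0.376). BYSL, bystin, was at 7.28 and 6.98 in VS-5584 cells and 7.39 and 7.47 in controls (-0.31 ± 0.15, SE). RRP12, an export factor, was at 6.25 and 5.99 in VS-5584 cells and 6.35 and 6.26 in controls, a gap of under 0.01 between the nearest arrays (-0.18 ± 0.14, SE). NOB1 itself was at -0.36 on average, but at -0.052 on VS-5584 replicate 1 and -0.67 on replicate 2. NAT10, the enzyme that acetylates 18S rRNA, was at -0.27 with overlapping groups, and at -0.016 and -0.53 on the same arrays.

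The 14 tested genes of 60S assembly had the lowest median of the 6 role groups, -0.34, and 11 had no overlap, against 29.2% of all genes tested. NOP16, a nucleolar 60S assembly factor, was at 8.49 and 7.95 in VS-5584 cells and 8.65 and 8.80 in controls, a difference of -0.50 ± 0.18 (SE, adjusted p = 0.417). RRP15, a factor of early 60S precursors, was at 8.98 and 8.85 in VS-5584 cells and 9.23 and 9.34 in controls (-0.37 ± 0.13, SE). NOP2, an rRNA methyltransferase known as a proliferation antigen, was at 8.18 and 7.77 in VS-5584 cells and 8.34 and 8.44 in controls (-0.42 ± 0.16, SE). RRP15 thus differed by a like amount on both treated arrays, and NOP16 and NOP2 more on replicate 2. MRTO4, a factor of the ribosomal stalk, had the second largest difference of the 45, -0.59, with a standard deviation of 0.60 between treated replicates, the highest of any member.

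BOP1, PES1 and WDR12 encode the 3 proteins of the PeBoW complex, needed to make 28S and 5.8S rRNA, and their values were unlike. WDR12 was at -0.29 with no overlap, and PES1 at -0.34 with overlap. BOP1 was at 6.55 and 6.79 in VS-5584 cells, on either side of its controls at 6.68 and 6.67, a difference of -0.0073 ± 0.14 (SE). It is the 1 tested member with more than 1 probe set, and its dimmer one differed by -0.044. BRIX1, RRS1 and GNL2 were at -0.078, -0.17 and -0.21. GNL3, EBNA1BP2 and DDX18 had no probe set with 1 gene and were not analysed here.

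**Figure D2:**
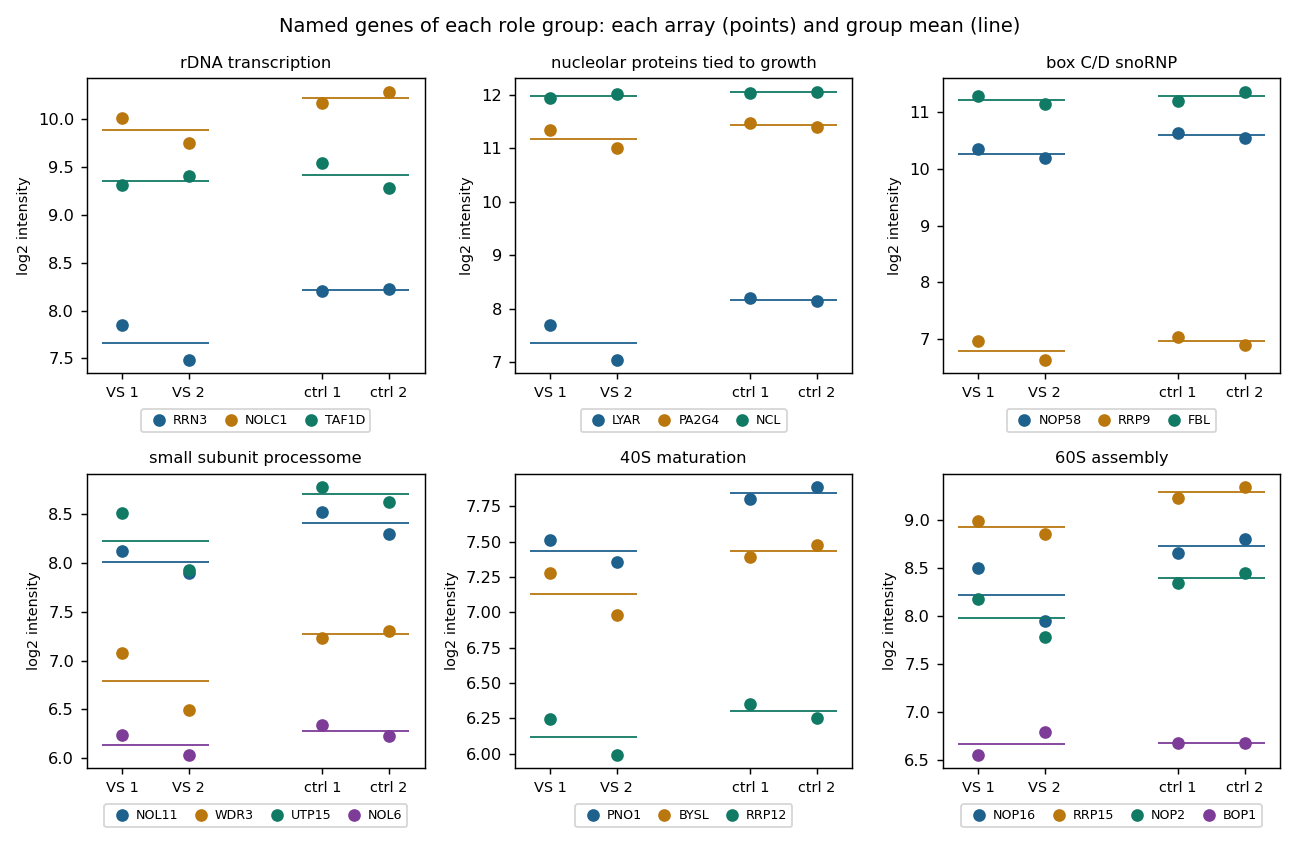
Log2 intensity (y axis) of the 20 named genes in 6 role groups on VS-5584 replicates 1 and 2 (VS) and control replicates 1 and 2 (ctrl). Points are arrays and lines are group means. RRN3, LYAR and PNO1 lie clearly below their controls on both VS-5584 arrays, while TAF1D, FBL and BOP1 overlap.

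Brightness moved with the difference over all genes, and the members are bright. Of the 45, 26 fell in the brightest 25% of genes tested by mean intensity, 12 in the next band, 7 in the one below and 0 in the dimmest. Over all genes the median differences of these bands were -0.13, -0.16, -0.040 and 0.043 in the same order, brightest to dimmest, and the members' medians in the 3 bands that held any were -0.31, -0.36 and -0.17. In the brightest band 22 of 26 members had VS-5584 below control without overlap, against 42.0% of all genes in it. In the next band it was 9 of 12, against 37.2%, and in the one below 4 of 7, against 25.5%. The members were therefore lower than the typical gene of their own brightness in each band that held any. The part of the narrowed range of VS-5584 replicate 2 in these differences was not tested. On replicate 1 alone, where the brightest band's median was -0.034, the members in it had a median of -0.14. Across the 45 genes themselves, brightness and difference were hardly related (Pearson r = 0.15 and Spearman rho = 0.045, over genes measured on the same arrays).

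**Figure D3:**
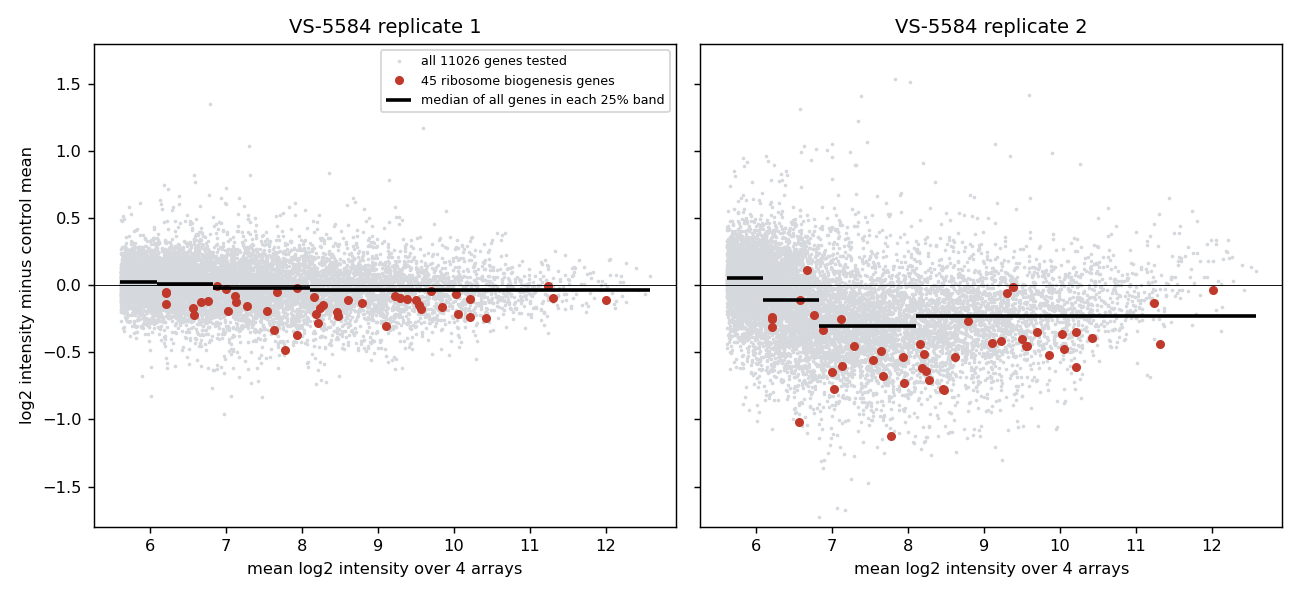
Log2 intensity of VS-5584 replicate 1 (left) and replicate 2 (right) minus the control mean, against the mean log2 intensity over the 4 arrays. Grey points are the 11026 genes tested, red points the 45 ribosome biogenesis genes, and black lines the median of all genes in each 25% band of brightness. Most red points lie below the black lines, by more on replicate 2.

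Scaling the arrays to each other with cyclic loess, which removes trends with brightness, left the members lower and shrank the difference. Their median was then -0.20, against -0.010 for all genes tested. After loess 42 of 45 averages stayed below 0, against 52.5% of all genes, and 31 of 45 had no overlap, against 24.4%. At an unadjusted p under 0.05, 8 of 45 were lower, against 7.95% of all genes. TAF1D, BOP1 and BRIX1 were the 3 with a positive value after loess, at 0.065, 0.066 and 0.045.

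The order of the genes was only weakly shared between pairs of arrays. Between VS-5584 replicate 1 minus control 1 and replicate 2 minus control 2, which share no array, the members' differences had a Pearson r of 0.21 and a Spearman rho of 0.14 (n = 45 genes), against 0.48 and 0.42 over all genes tested. Of the 45 differences, 41 were below 0 in the first pair and 42 in the second. The shares of all genes below 0 in these pairs were not taken, and the backgrounds were unlike. The members' medians were -0.15 and -0.43, against -0.0047 and -0.13 for all genes tested.

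Other ribosome assembly genes were mostly lower too. In 4 further lists, 107 of 112 listed genes were tested, and 101 of those averaged lower, against 62.7% of all genes tested. Their median was -0.24, and 61 had VS-5584 below control without overlap, to be read against the same 29.2% of all genes. Both VS-5584 arrays lay above both controls for 3 of the 107, against 14.7% of all genes. At an unadjusted p under 0.05, 27 of the 107 were lower and 1 was higher, against 8.93% and 1.49% of all genes tested, and 0 passed the adjusted threshold. The higher one was NOP53, a large subunit factor, at 0.38. The 44 other small subunit factors had a median of -0.24, and 28 of them were lower without overlap. The 44 other large subunit factors had a median of -0.21, and 20 of them were. RRP36, of early small subunit processing, was at 6.49 and 6.05 in VS-5584 cells and 6.88 and 6.72 in controls (-0.53 ± 0.17, SE). DDX27, a helicase of 60S assembly, was at 7.53 and 7.34 in VS-5584 cells and 7.78 and 7.99 in controls (-0.45 ± 0.14, SE). Both were clear of their controls on each treated array.

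The box H/ACA particle, which converts uridines of rRNA to pseudouridine, averaged lower for 6 of 6 genes (median -0.20), against 62.7% of all genes tested. Only 2 of the 6 had no overlap, a share near the 29.2% of all genes tested. The particle's median was -0.030 on VS-5584 replicate 1 and -0.32 on replicate 2. DKC1, its enzyme dyskerin, was at 9.92 and 9.69 in VS-5584 cells and 10.10 and 10.19 in controls (-0.35 ± 0.14, SE). The RNA exosome and its cofactors, which trim the 3' end of 5.8S rRNA, averaged lower for 13 of 13 genes (median -0.24), against 62.7% of all genes tested. That median was -0.11 after cyclic loess, -0.12 after quantile normalization and -0.13 without VS-5584 replicate 2. EXOSC8, one of its ring subunits, was at 8.52 and 8.45 in VS-5584 cells and 9.11 and 8.89 in controls. Its treated arrays were close together, unlike those of most members, and the difference was -0.52 ± 0.14 (SE, adjusted p = 0.307).

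Subunits and factors of RNA polymerase I averaged lower for 10 of 12 genes, against 62.7% of all genes tested. Their median was -0.29, and -0.12 on VS-5584 replicate 1 alone. Without overlap, 5 of the 12 were lower and 1 was higher, against 29.2% and 14.7% of all genes. POLR1F, a subunit, was at 7.57 and 7.29 in VS-5584 cells and 7.87 and 7.82 in controls (-0.41 ± 0.14, SE). The cytosolic ribosomal proteins had the opposite sign. Of 57 genes tested, 46 averaged higher (median 0.10), against 4109 of all 11026 genes tested. Both VS-5584 arrays lay above both controls for 21 of the 57, against 14.7% of all genes, and below both for 2, against 29.2%. At an unadjusted p under 0.05, 1 was higher, a share near the 1.49% of all genes, and 0 passed the adjusted threshold. RPL22 was at 10.01 and 9.84 in VS-5584 cells and 9.68 and 9.41 in controls (0.37 ± 0.15, SE, adjusted p = 0.440). Ribosomal protein genes have many pseudogenes that can share their signal. MYC mRNA was at 9.74 and 9.86 in VS-5584 cells, inside its control values of 9.60 and 9.98, with a difference of 0.015 ± 0.16 (SE) that turned to -0.031 after median centring.

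**Figure D4:**
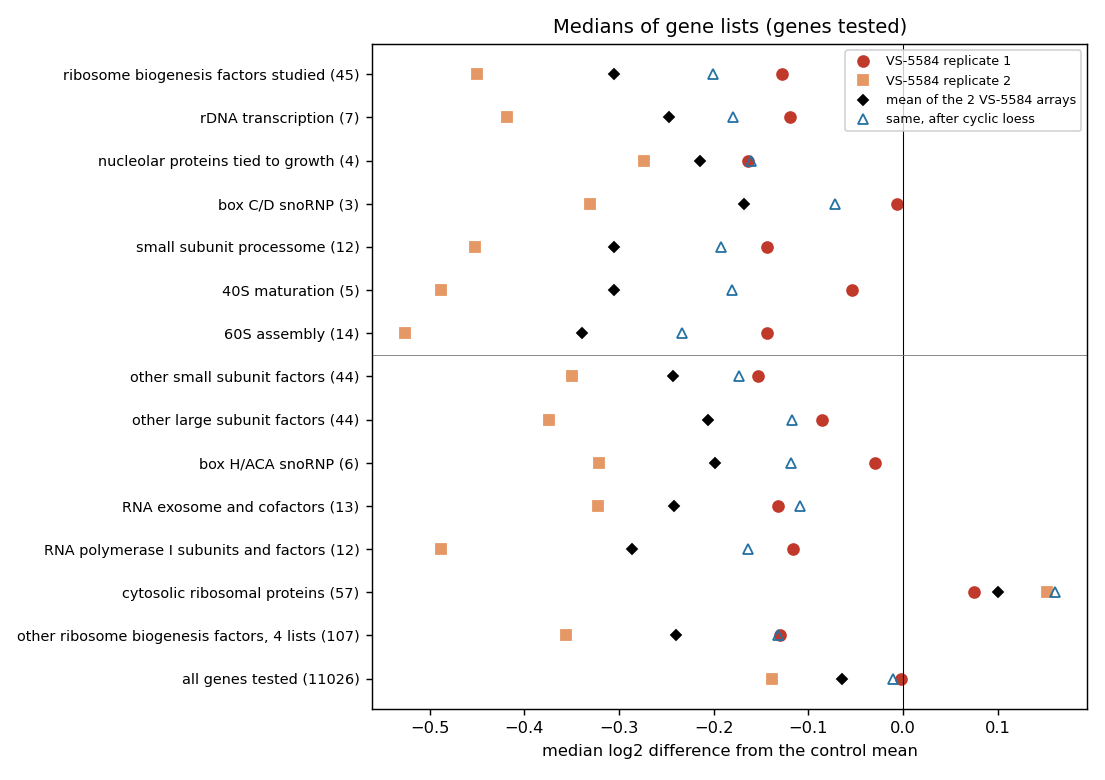
Median log2 difference from the control mean (x axis) for each gene list, with the number of genes tested in brackets. Circles and squares are VS-5584 replicates 1 and 2, diamonds the mean of both and open triangles that mean after cyclic loess. All ribosome biogenesis groups lie to the left of 0 on both VS-5584 arrays, and the cytosolic ribosomal proteins to the right. On replicate 1 the box C/D snoRNP is at -0.0064 and the box H/ACA snoRNP at -0.030, close to the -0.0022 of all genes tested.

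The promoters of these genes were searched for a pair of short motifs, which the list was not chosen by. RefSeq promoter windows (GRCh38.p14, 250 bases before to 50 after the annotated gene start) were at hand for 42 of the 50 genes. The E-box searched was CACGTG, which reads the same on both strands. It occurred in 19 of the 42, or 45.2%, against 12.7% of 8883 tested genes with a window and 8.77% of all 27305 genes with one. In 19 of the 20 windows that held it, from 19 genes, it began within 100 bases of the annotated start, and in 13 it began after the start. The window itself limits how far from the start a match can lie, and positions in other genes were not compared. Of the other lists, small subunit factors had it in 39.5% of genes and large subunit factors in 26.2%, whereas polymerase I subunits had it in 9.09% and cytosolic ribosomal proteins in 6.35%. The box H/ACA list had it in 2 of 5 genes and the RNA exosome list in 15.4%. The ETS-type motif CCGGAAG, searched on both strands, occurred in 35.7% of the 42 and in 22.5% of tested genes. It occurred in 52.6% of the other small subunit factors, 47.6% of the other large subunit factors, 54.5% of polymerase I genes and 34.9% of cytosolic ribosomal proteins. In the box H/ACA list it was in 3 of 5 genes, and in the RNA exosome list in 7.69%. Its share in the factors studied was thus not the highest.

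The stretch around the E-box is shown for each member with all array values given above that holds one. Each runs 5' to 3' on the gene's strand, with up to 30 bases on each side, and shows how near the start the E-box lies. Other members that hold an E-box are not shown. Capitals mark the E-box. On chromosome 4 (minus strand, chr4:4290050-4290115) the E-box of LYAR begins at position -64 from the annotated start. Those of RRP9 (minus strand, chr3:51941874-51941939) and FBL (minus strand, chr19:39846338-39846403) begin at -5 and 7. PNO1 (plus strand, chr2:68157867-68157932) has it at 10, NOL6 (minus strand, chr9:33473876-33473941) at 14, BYSL (plus strand, chr6:41921497-41921548) at 29 and NOP2 (minus strand, chr12:6568242-6568286) at 36.
LYAR: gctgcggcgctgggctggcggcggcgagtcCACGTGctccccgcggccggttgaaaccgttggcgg
RRP9: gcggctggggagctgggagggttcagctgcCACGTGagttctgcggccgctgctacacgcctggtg
FBL: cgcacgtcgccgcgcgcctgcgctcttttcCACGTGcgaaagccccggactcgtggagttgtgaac
PNO1: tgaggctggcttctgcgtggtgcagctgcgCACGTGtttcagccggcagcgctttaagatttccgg
NOL6: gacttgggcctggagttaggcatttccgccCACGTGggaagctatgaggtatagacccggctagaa
BYSL: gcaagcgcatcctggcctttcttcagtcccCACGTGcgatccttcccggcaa
NOP2: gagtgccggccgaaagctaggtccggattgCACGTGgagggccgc

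The whole window of LYAR (chr4:4289972-4290271, minus strand), the gene with the largest difference, is given to show the rest of its promoter, with the E-box in capitals.
LYAR promoter: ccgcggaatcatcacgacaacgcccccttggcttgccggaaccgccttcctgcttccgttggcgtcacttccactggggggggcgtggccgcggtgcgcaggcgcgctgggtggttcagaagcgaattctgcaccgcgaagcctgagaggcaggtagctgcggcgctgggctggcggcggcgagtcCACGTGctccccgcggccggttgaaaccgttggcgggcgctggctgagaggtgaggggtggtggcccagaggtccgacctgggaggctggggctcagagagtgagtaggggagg

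Having the motif did not go with a larger difference among the members. The 17 tested genes with an E-box had a median of -0.31 and a range of -0.80 to -0.068, and the 21 without one had a median of -0.31 and a range of -0.55 to -0.055. LYAR and FBL, near the extremes of the list, both hold an E-box. Over all tested genes with a window, the median was -0.095 for the 1128 with an E-box and -0.073 for the 7755 without. A match describes letters in a window and is not a measured binding site.

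**Figure D5:**
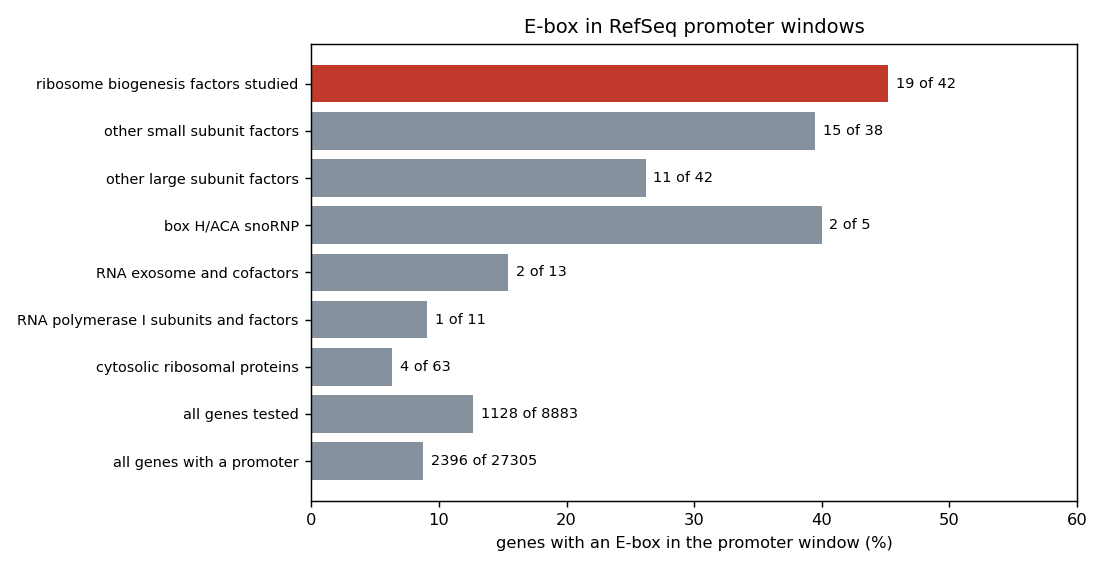
Share of genes (x axis, percent) whose RefSeq promoter window holds an E-box, for the ribosome biogenesis factors studied (red), other gene lists and all genes (grey), with counts beside the bars. The factors studied have it in 19 of 42 genes, against 1128 of 8883 tested genes.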

How the data were processed

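Biotinylated cDNA of 4 OPM2 samples was read on 1-colour arrays, per the labels' protocols. The table deposited by the authors holds a linear intensity for each of 28869 probe sets on every array. The submitters' processing notes name RMA without a version. The lowest intensities were 19.8 to 20.0, and no source used here says how linear values were made from RMA's log2 scale. An added constant would shrink the differences of dim genes. Background was not measurable from the table, and precision is limited by having 4 arrays.

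Values were taken to log2 without further normalization. Of the probe sets, 19310 carried 1 gene, 1752 several and 7807 none listed, and 19279 were matched to RefSeq (GRCh38.p14) by gene ID. The brightest probe set stood for each gene. The 40% of genes with the lowest mean (below an intensity of 48.9) were left out. Groups were compared by limma 3.58.1 in R 4.3.3 (lmFit, eBayes, two-sided) with Benjamini-Hochberg adjustment over 11026 genes, after the code was tested on simulated data. Differences are VS-5584 minus control, with limma's SE. With 2 arrays against 2, an exact permutation test cannot reach 0.05 and was not used.

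The members and lists were chosen with earlier results of these data known. By rule, the genes named with all array values were the 2 with the smallest p in each role group (3 in groups of over 10), the 1 nearest 0, any member averaging above 0 (there was none), members without a usable probe set, the smallest p of each further list, and MYC. NOP53 and other members, given by their average alone, were chosen after their values were seen. Alternatives were median centring, a replicate block, cyclic loess, quantile normalization, no filter or one at 20%, an intensity trend, averaging probe sets, subtracting 16 from intensities, and leaving out each array. Figures were drawn with matplotlib 3.10.9.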

Additional observations from a re-analysis of the deposited data

How the results depend on the processing

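The number of genes past the adjusted threshold was 0 of all genes in the fit reported, 432 with the replicate number as a block, 16 after cyclic loess, 2 after quantile normalization, 80 with an intensity trend, 2 with 16 subtracted, and 2 to 2636 when an array was left out. Among the 45 ribosome biogenesis genes it was 0, 5 with the replicate block (LYAR, MRTO4, RRN3, NOP16 and UTP15) and 0 to 29 with an array left out, the 29 being without VS-5584 replicate 1. The labels name no batch behind the replicate numbers. Deviations of same-numbered arrays correlated at r = 0.16, which over 2 pairs does not settle whether the numbers pair the samples. The count at an unadjusted p under 0.05 was 15, but 23 with the block, 8 after cyclic loess and 4 to 34 with an array left out, 4 without VS-5584 replicate 2 and 5 without either control. The share of all genes lower at that p was 8.93% in the fit reported and 7.95% after cyclic loess, and was not taken for the block. The count without overlap was 30 to 36 under the alternatives with all 4 arrays. For all genes it was 29.2% in the fit reported and 24.4% after cyclic loess, and was not taken for the other alternatives with all 4 arrays. With an array left out the members' count was 37 to 42, where fewer arrays make it easier to meet. The share of all genes below both controls was 34.6% for VS-5584 replicate 1 alone and 60.1% for replicate 2 alone. The median of the 45 genes ran from -0.35 with median centring to -0.20 after cyclic loess. With an array left out it ran from -0.45 to -0.13, -0.13 being without VS-5584 replicate 2. Where an array was left out of a group, the remaining one was assumed to vary like the other group, so p-values and counts from these fits are not given. Directions turned for TAF1D (0.065 after cyclic loess, 0.069 after quantile normalization, -0.18 to 0.072 with an array left out), BOP1 (0.066, 0.063, and -0.13 to 0.11), BRIX1 (0.045, 0.036, and -0.16 to 0.0016) and FBL (-0.15 to 0.014 with an array left out), and for MYC (-0.031 with median centring, and -0.18 to 0.21 with an array left out). The other 41 members stayed lower under all alternatives.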
